A study of Arabidopsis thaliana with 6 samples.

Results

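The genes described here are the 43 nuclear genes of Arabidopsis thaliana that encode light-harvesting antenna proteins and nuclear-encoded subunits of the photosystems. They were chosen by locus, not by any measured value. Each was found on the arrays with 1 probe, so they account for 43 of the 21500 probes. The set holds 15 LHCB genes for the antenna of photosystem II, 6 LHCA genes for the antenna of photosystem I, 12 PSA genes for photosystem I and 10 PSB genes for photosystem II.

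Antenna proteins bind chlorophyll in the thylakoid membrane of the chloroplast and pass excitation energy to the reaction centres. Photosystem II uses that energy to oxidise water, and photosystem I to reduce ferredoxin. The reaction-centre proteins themselves are encoded in the plastid genome and are not among these genes, whereas the antenna and many outer subunits are encoded in the nucleus, where their transcription is known to follow light and the circadian clock.

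The study measured RNA on 6 Agilent arrays with 2 colours, with the control RNA in Cy3 and the treated or transgenic RNA in Cy5, and without a dye swap. On 4 arrays, plants of the Columbia accession had received 5 mM salicylic acid (SA), which signals in plant defence, before harvest and were compared with untreated plants of the same accession. The treatment lasted 2, 5, 10 or 24 h, and a single array covers each of those times. On the other 2 arrays, plants overexpressing SIBA, the locus AT3G56710 (SIB1), whose protein is known to bind sigma factors of plastid transcription, were compared with plants carrying the vector. All plants were 28 days old and were taken whole but for the root. The overexpressors are named CA32F3 and CA32F4 in the labels and are called line 1 and line 2 here. The sources used here give neither their accession, nor the promoter of the construct, nor whether they came from separate transformations. The labels also do not say whether arrays shared a control RNA, whether plants were pooled, or at what time of day controls were harvested.

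Values below are log2 ratios of Cy5 over Cy3 after background correction and loess normalization within each array, so that −1 is 2-fold lower than the control. The ratio for SIB1 itself was 4.46, 3.71 and 2.89 after 2, 5 and 10 h of SA. Line 1 had a ratio of 5.25 and line 2 of 5.59, in the direction that the labels of the overexpressors state, and its spot at 24 h carried an outlier mark. Line 2 stood apart from line 1 in the genes of the circadian clock. In line 2 the morning transcription factor genes LHY and CCA1 were at 4.01 and 3.44, PRR9 at 1.14, and PRR7, PRR5, GI and GRP7 at −1.49, −2.67, −2.21 and −3.55, while none of the 10 clock genes measured reached 2-fold in line 1. Clock genes also differed from their controls on the SA arrays, as given beside those results. Signals differed in brightness between arrays. The median background-subtracted Cy5 signal was 21.5 at 2 h, and 79 and 84 for the overexpressors, but 206.5 to 404 for the later SA arrays.

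Green-tissue marker genes were well above background in the control channel of the 5, 10 and 24 h arrays in 4 of 4 cases. Of 6 root markers, 4 to 6 carried the same mark although roots were left out, as did 2 to 4 of the 4 flower and 2 to 4 of the 4 seed markers. At 24 h all markers of the 4 kinds carried it, so the mark did not tell organs apart there. The root marker PYK10, a beta-glucosidase gene, was at −0.91, −1.22, −1.60 and −0.47 over the 4 SA arrays and passed the test as lower, and 0 of the other 5 root markers did. The part of these markers in the results was not tested. RNA came from whole shoots, so fewer green cells and less RNA per cell cannot be told apart.

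Because the antenna and photosystem transcripts are so abundant, their spots often exceeded the range of the scanner. Of the 258 combinations of a gene and an array, 84 were saturated in at least 1 channel and 174 gave a ratio. Genes with a ratio numbered 37, 27, 26 and 24 over the SA times in order, 25 in line 1 and 35 in line 2. Among the probes saturated on an array, these genes made up 6 of 7, 16 of 26, 17 of 30 and 19 of 34 over the SA times, and 18 of 21 and 8 of 10 in lines 1 and 2. The highest mean signal of an unsaturated member lay between 60100 and 64800 over the 6 arrays, and the lowest mean signal of a saturated one between 64400 and 65200.

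**Figure D1:**
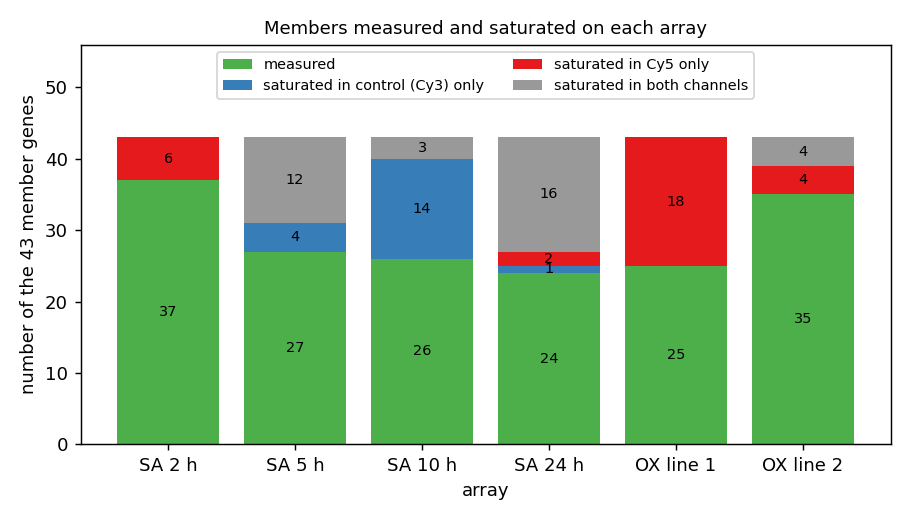
Number of the 43 genes (vertical axis) measured, or saturated in the control channel only, in the Cy5 channel only or in both, on each of the 6 arrays (horizontal axis). At 10 h, 14 genes were saturated in the control channel only, and in line 1, 18 were saturated in Cy5 only.

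The channel that saturated differed between arrays. At 2 h the 6 saturated members, and in line 1 the 18, were saturated in Cy5 only. At 10 h the reverse held, with 14 of the 17 saturated in the untreated control only. On the 5 h array 12 were saturated in both channels and 4 in the control only. The 24 h array had 16 saturated in both, 1 in the control only and 2 in Cy5 only. Line 2 had 4 in both and 4 in Cy5 only. LHCB1.1, LHCB1.2, LHCB1.5, LHCB6 and LHCA1 gave no ratio on any array. All 43 were well above background in both channels of every array, and 23 had a ratio on all 6.

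The first comparison asks how these genes differ between SA-treated and untreated plants. With loess, the set was close to its controls at 2 h, lower at 5 h, lowest at 10 h and less low at 24 h. Over the 23 genes measured on all 6 arrays the median was 0.02 after 2 h, then −0.54 after 5 h and −1.11 after 10 h, and it was −0.55 on the last array. The 2 h level depended on the normalization: with arrays centred on their median in place of loess it was 0.91, with 0 of 23 genes below 0, whereas the later medians were −0.61, −1.07 and −0.33. Ratios lay below 0 in 18 of 37 genes at 2 h, against 53.4% of all probes. At 5 h they did so in 24 of 27, against 49.0%, at 10 h in 24 of 26, against 51.3%, and at 24 h in 21 of 24, against 47.0%. Each of these values rests on 1 array, so 1 time could not be tested against another. Only a slope over the 4 times could be, as given further on.

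At least 2-fold lower were 0 of 37 genes at 2 h (2.31% of all probes), 5 of 27 at 5 h (3.66%), 12 of 26 at 10 h (4.41%) and 1 of 24 at 24 h (5.58%). None was at least 2-fold higher at any of the 4 times, at which 3.85%, 6.07%, 7.28% and 5.42% of all probes were. With saturated spots given weight 0 in the loess fit, 3 of the 23 genes measured on all arrays passed 2-fold at 24 h, against 1 with the main setting, so the count at that time depends on the setting. The share over all probes is a rough backdrop, since the offset added in background correction pulls the ratios of dim probes towards 0. Most of these genes are bright, but some are dim. On each array, 24 to 28 of the 50 brightest probes were members, and 33 to 39 belonged either to these genes or to the other photosynthesis lists below. The part of these probes in the loess curve was not tested.

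**Figure D2:**
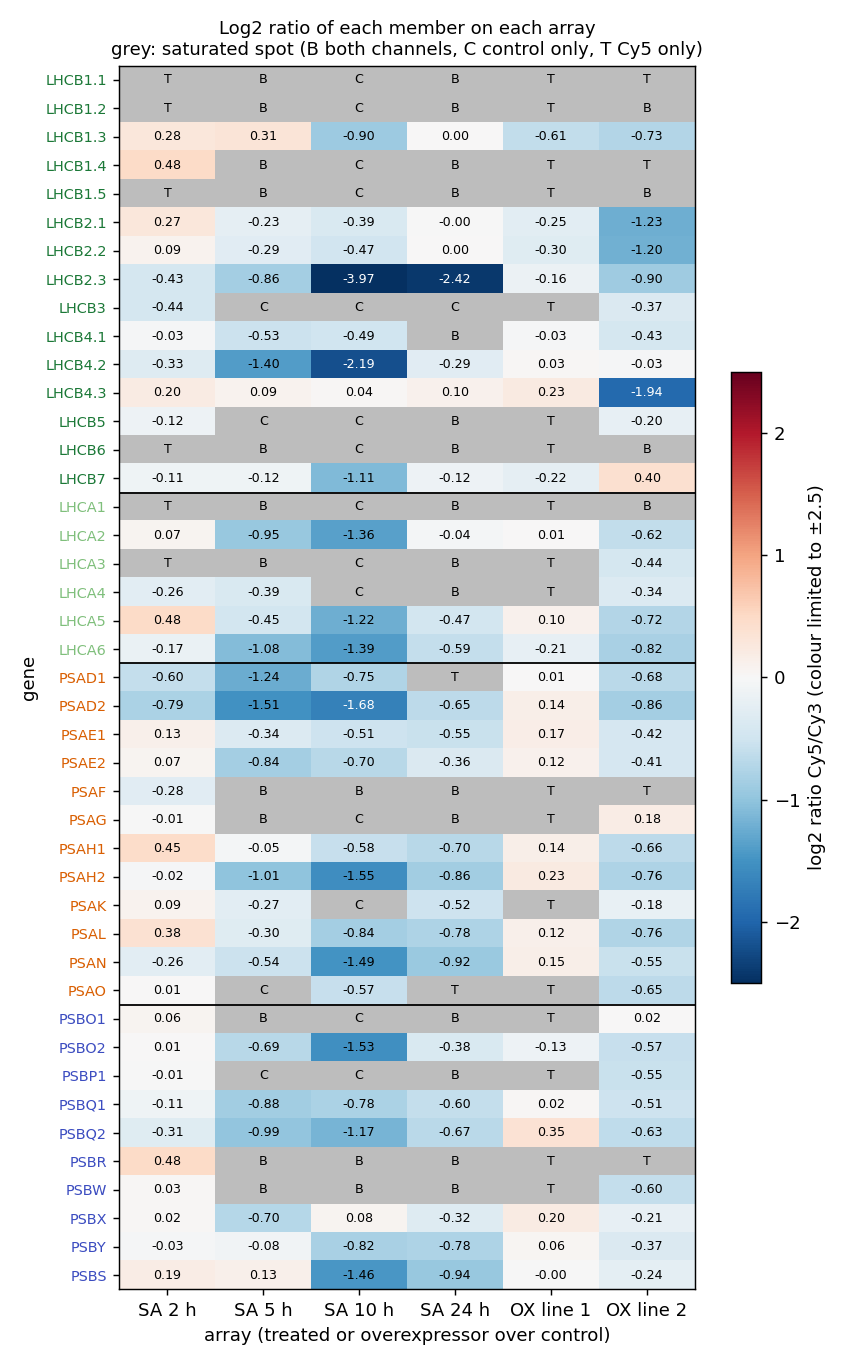
Log2 ratio of each of the 43 genes (rows, by group, with the antenna of photosystem II in dark green, the antenna of photosystem I in light green, photosystem I in orange and photosystem II in blue) on each of the 6 arrays (columns). Grey cells are saturated spots, and the deepest blue is LHCB2.3 at 10 h, at −3.97.

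The lowest of the 4 SA ratios fell at 10 h in 18 of the 23 genes, against 31.9% of all probes, and the highest at 2 h in 19, against 21.9%. Ratios were below 0 at 5, 10 and 24 h together in 18 of 23, against 23.1%. All 10 antenna genes measured at every time had their lowest ratio at 10 h, as did 4 of 7 photosystem I and 4 of 6 photosystem II genes. The 10 h ratio was below the 24 h ratio in 10 of 10 antenna genes, 5 of 7 photosystem I genes and 5 of 6 photosystem II genes. Group medians at 24 h were −0.08 for the antenna, −0.70 for photosystem I and −0.63 for photosystem II. Among the genes measured, the antenna median thus lay nearest to the controls at that time. Those were 10 of 21 antenna genes, 7 of 12 photosystem I genes and 6 of 10 photosystem II genes. Saturated antenna genes such as LHCB3 are left out. Some antenna genes left in were dim, such as LHCB7, with mean signals of 263 in Cy3 and 353 in Cy5 at 24 h. LHCB4.3 had 472 and 832 there, LHCB1.3 had 484 and 797, LHCB2.1 had 736 and 1270, and LHCB2.2 had 762 and 1320. At 10 h the group medians were −1.16 for the antenna, −0.84 for photosystem I and −0.99 for photosystem II. With median centring they were −0.90, −1.01 and −1.27 there, in another order, so no order of the groups is drawn at 10 h.

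**Figure D3:**
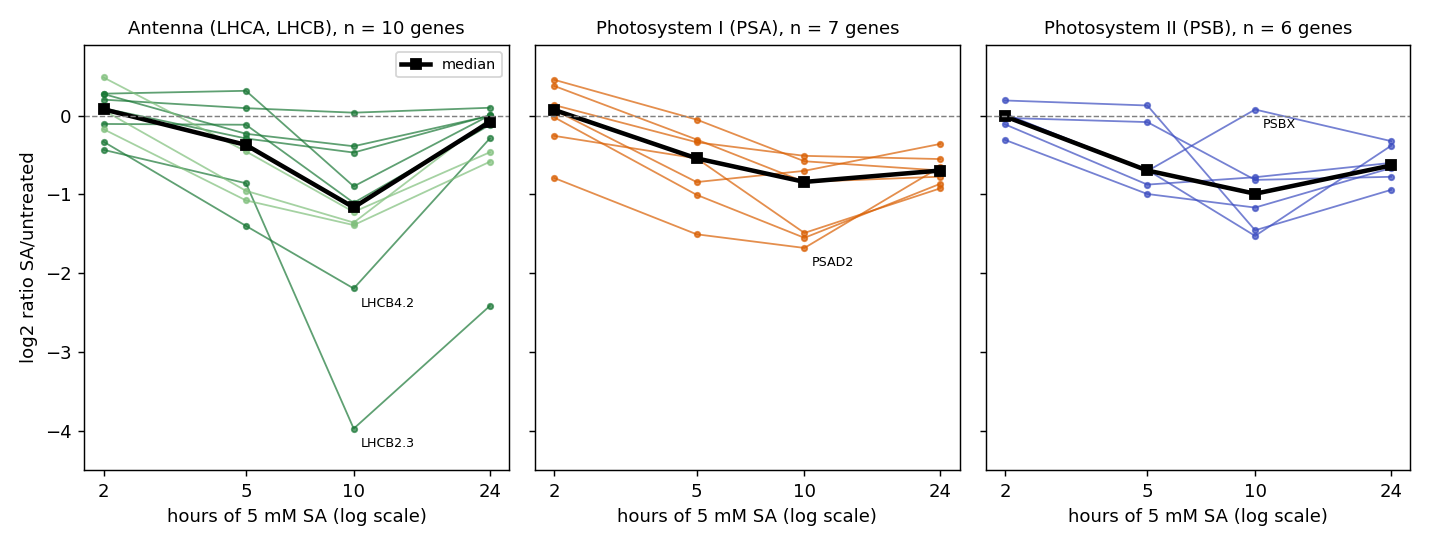
Log2 ratio of SA-treated over untreated plants (vertical axis) against hours of SA on a log scale (horizontal axis) for the genes measured on all 4 SA arrays, 1 thin line per gene, with the median in black. Light green lines in the left panel are LHCA genes. The antenna median goes from 0.08 at 2 h to −1.16 at 10 h and −0.08 at 24 h.

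Clock genes differed from their controls on each SA array, and several changed direction between times. At 10 h, when the photosystem genes were lowest, LHY and CCA1 were at −2.57 and −1.69 and the evening genes TOC1, LUX and ELF4 at 2.22, 2.55 and 1.59, with PRR5 at 1.93 and GRP7 at 2.53. At 5 h LHY was more than 2-fold above its control and PRR5 and GRP7 were at −1.53 and −1.57, and at 24 h PRR5, PRR7 and GRP7 were at −1.74, −2.16 and −1.62. At 2 h LUX was at 1.74 and CCA1 at −1.78. These clock genes other than the 7 named for line 2 were chosen after their values were seen. The part of the clock in the ratios of the photosystem genes was not tested, and with 1 array per time the clock genes, the time and the treatment cannot be told apart.

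**Figure D4:**
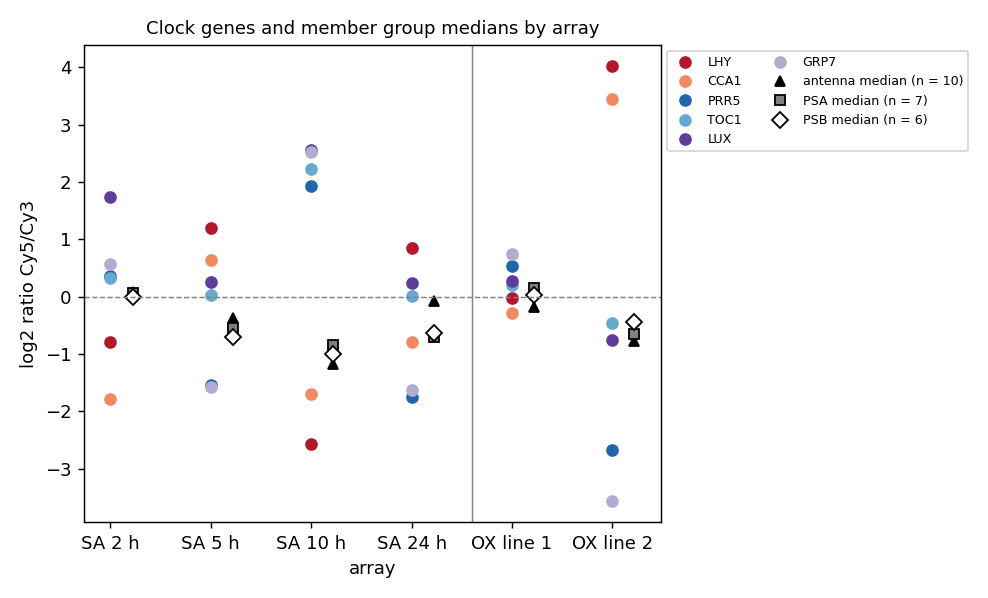
Log2 ratio (vertical axis) of 6 clock genes (coloured points) and the median of the antenna, PSA and PSB genes measured on all 6 arrays (black, grey and white symbols) on each array (horizontal axis). LHY lies at −2.57 at 10 h and at 4.01 in line 2, and the member medians are below 0 on both arrays.

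Across the 4 SA arrays, 25 of the 26 genes with at least 3 ratios had a mean below 0 with loess, against 52.1% of all probes. With median centring further means lay above 0, as given in the last section. A single one of the 26, PSAD2, passed limma's test of the mean against 0, at an adjusted p under 0.05 and at least 2-fold lower, against 0.951% of all probes. Called higher were 0 of 26, against 2.75%. At an unadjusted p under 0.05 there were 10 of the 26, against 25.9% of all probes. The test uses the spread between the 4 times as its error, and testing ratios against 0 takes no account of how much the controls themselves vary. The labels do not say that arrays came from separate batches of plants. A p-value thus speaks only for the spread among these arrays, which holds the time course and may hold technical differences.

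PSAD2 (AT1G03130) encodes the PsaD subunit, which docks ferredoxin on the stromal side of photosystem I. Its ratio was −0.79, −1.51, −1.68 and −0.65 at 2, 5, 10 and 24 h, below 0 on all 4 arrays and lower on the middle arrays. The mean was −1.16 ± 0.51 (SD, n = 4 arrays, limma adjusted p = 0.0446). The call was lost when any 1 array was left out, with limma adjusted p of 0.0706 without the 2 h array, 0.159 without 5 h, 0.111 without 10 h and 0.0883 without 24 h. It was also lost when arrays were centred on their median in place of loess (limma adjusted p = 0.152), where the 2 h ratio was 0.097. The mean itself was −0.94 with median centring and between −1.33 and −0.98 with 1 array left out. Over all probes, the 787 calls became 712 without the 2 h array, 110 without 24 h, and 0 without the 5 h or the 10 h array.

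Among the antenna genes of photosystem II, the LHCB1 and LHCB2 genes encode the proteins of the major trimeric complex. Some of them are direct neighbours on their chromosome and close copies of each other, namely LHCB1.1 with LHCB1.2 and with LHCB1.3, LHCB1.4 with LHCB1.5, and LHCB2.1 with LHCB2.2. Transcripts of such copies may bind each other's probes, and probe sequences were not used here, so their separate values are uncertain.

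LHCB1.3 (AT1G29930) was at 0.28, 0.31, −0.90 and 0.00 over the SA times. It was below its control at 10 h and at or above it on the other arrays. LHCB1.4 gave a ratio at 2 h only, 0.48. The neighbours LHCB2.1 (AT2G05100) and LHCB2.2 (AT2G05070) stayed within 2-fold on all 4 SA arrays, with LHCB2.1 at 0.27, −0.23, −0.39 and −0.00. The ratios for LHCB2.2 were 0.09, −0.29, −0.47 and 0.00. The pair differed from each other by at most 0.18 on an SA array. Both probes were dim, with mean signals at 2 h of 358 in Cy3 and 583 in Cy5 for LHCB2.1. Those of LHCB2.2 were 304 and 416. The offset pulls such ratios towards 0.

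LHCB2.3 (AT3G27690), a further LHCB2 gene at another locus, was at −0.43, −0.86, −3.97 and −2.42. It had the lowest ratio of the 26 genes measured at 10 h and of the 24 measured at 24 h. Saturated genes are not in that order. At 24 h it was the 1 measured gene past 2-fold, joined by PSAN and PSBS, both at −1.03, when saturated spots had weight 0 in the loess fit. Its mean of −1.92 ± 1.61 (SD, n = 4) did not pass the test (limma adjusted p = 0.147), with arrays spread from −0.43 to −3.97. LHCB2.3 was lower than LHCB2.1, with log2 differences of −0.71, −0.63, −3.58 and −2.41 over the 4 times. These are differences between ratios of separate probes on single arrays and carry no test. The probes also differed in brightness. At 10 h the mean signals were 21900 in Cy3 and 1950 in Cy5 for LHCB2.3, against 986 and 1290 for LHCB2.1.

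The LHCB4 genes encode the minor antenna protein CP29, which links the trimers to the core of photosystem II. Its copies also differed. LHCB4.2 (AT3G08940) was at −0.33, −1.40, −2.19 and −0.29, low at 5 and 10 h. LHCB4.1 (AT5G01530) was at −0.03, −0.53 and −0.49 at 2, 5 and 10 h, and saturated at 24 h. LHCB4.3 (AT2G40100) was at 0.20, 0.09, 0.04 and 0.10, above 0 on every SA array with loess. With the authors' deposited ratios it was at −0.08 at 10 h. It was the 1 gene of the 26 with a mean above 0 with loess. With median centring the means of PSAH1, PSAK, LHCB2.1, LHCB1.3 and LHCB2.2 also lay above 0. The mean was −1.05 ± 0.92 (SD, n = 4, limma adjusted p = 0.160) for LHCB4.2 and 0.11 ± 0.07 (SD, n = 4, limma adjusted p = 0.383) for LHCB4.3, so neither passed. LHCB4.3 was much dimmer than LHCB4.2. Its mean signals at 10 h were 875 in Cy3 and 1530 in Cy5, against 43500 and 10500 for LHCB4.2.

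LHCB7 (AT1G76570), a divergent relative of the LHCB proteins, was at −0.11, −0.12, −1.11 and −0.12. The 10 h array alone held a ratio past 2-fold for it. LHCB3 (AT5G54270), which encodes a protein of the trimers, LHCB5, which encodes the minor antenna protein CP26, and LHCB6, for CP24, were saturated on most arrays. At 2 h LHCB3 was at −0.44 and LHCB5 at −0.12.

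For a spot saturated in the control channel only, the true control signal is higher than recorded, so the ratio gives a bound on how much lower the SA-treated plants were. The bound was taken from the normalized ratio with the saturated channel at its recorded value, and it is open to dye bias because dyes were not swapped. At 10 h, 13 of the 14 such genes gave a bound, and 4 of the bounds reached 2-fold. LHCB3 was at least 6.66-fold lower at 10 h. LHCA4 was at least 3.97-fold lower, LHCA1 at least 2.03-fold lower and LHCB1.4 at least 2.01-fold lower. With the scanner software's own ratio these bounds were 6.55, 3.90, 1.98 and 1.96, so the last pair lies at the 2-fold mark itself. With that ratio 11 of the 14 gave a bound at 10 h, and 3 of 4 at 5 h.

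Bounds under 2-fold at 10 h included LHCA3 at 1.98, LHCB5 at 1.90 and LHCB1.1 at 1.78, and the lowest was 1.02 for PSAG. LHCB1.2 gave none, with a ratio above 0. At 5 h, 4 genes gave bounds between 1.11 and 1.91, with LHCB3 the highest, and at 24 h LHCB3 was at least 1.62-fold lower. LHCB3 thus gave a bound on 3 SA arrays. The 8 spots saturated in Cy5 only, at 2 and 24 h, had ratios below 0 and so gave no bound.

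Of the LHCA genes, LHCA1 to LHCA4 encode the main belt of antenna proteins around photosystem I, and LHCA5 and LHCA6 the linkers that join photosystem I to the NADH dehydrogenase-like complex. LHCA2 (AT3G61470) was at 0.07, −0.95, −1.36 and −0.04, low at 5 and 10 h and at its control at 2 and 24 h. LHCA5 (AT1G45474) was at 0.48, −0.45, −1.22 and −0.47, above its control at 2 h and below it later. LHCA6 (AT1G19150) was at −0.17, −1.08, −1.39 and −0.59, below 0 on all 4 arrays with loess. Its 2 h ratio was 0.66 with median centring. All 3 genes passed 2-fold at 10 h with loess. None passed the test over the 4 arrays, with limma adjusted p from 0.100 for LHCA6 to 0.437 for LHCA5. LHCA4 (AT3G47470) was at −0.26 and −0.39 at 2 and 5 h.

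On the stromal side of photosystem I, PSAD1 and PSAD2 encode copies of PsaD, and PSAE1 and PSAE2 copies of PsaE, which also helps ferredoxin to bind. PSAD1 (AT4G02770) was at −0.60, −1.24 and −0.75 at 2, 5 and 10 h. All of its ratios were below 0 with loess, whereas the 2 h ratio was 0.44 with median centring. The mean of −0.86 ± 0.33 (SD, n = 3) with loess was under 2-fold and missed the threshold (limma adjusted p = 0.0638). PSAE1 was at 0.13, −0.34, −0.51 and −0.55 and PSAE2 at 0.07, −0.84, −0.70 and −0.36. Neither PSAE copy reached 2-fold at any time.

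PSAH, PSAL and PSAO encode the side of photosystem I where the mobile antenna docks. PSAH2 (AT1G52230) was at −0.02, −1.01, −1.55 and −0.86. PSAH1 (AT3G16140) was at 0.45, −0.05, −0.58 and −0.70, less low than PSAH2 on each array. PSAL was at 0.38, −0.30, −0.84 and −0.78. PSAH1 and PSAL had their highest ratio at 2 h, and PSAH1 its lowest at 24 h. PSAO was at 0.01 and −0.57 at 2 and 10 h.

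PSAN (AT5G64040), for the lumenal subunit that helps plastocyanin to bind, was at −0.26, −0.54, −1.49 and −0.92, low at the later times (mean −0.80 ± 0.53, SD, n = 4, limma adjusted p = 0.0995). PSAK, next to the LHCA belt, was at 0.09, −0.27 and −0.52 at 2, 5 and 24 h. PSAF and PSAG gave a ratio at 2 h only among the SA arrays, at −0.28 and −0.01.

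In photosystem II, the PSBO, PSBP and PSBQ genes encode the extrinsic proteins that shield the water-oxidising cluster. PSBO2 (AT3G50820) was at 0.01, −0.69, −1.53 and −0.38, with 10 h the one array past 2-fold. PSBQ1 was at −0.11, −0.88, −0.78 and −0.60. PSBQ2 (AT4G05180) was at −0.31, −0.99, −1.17 and −0.67, below 0 on all 4 arrays like PSBQ1 with loess. With median centring the 2 h ratios were 0.64 for PSBQ2 and 0.87 for PSBQ1. The mean was −0.78 ± 0.38 (SD, n = 4) for PSBQ2, which missed the threshold (limma adjusted p = 0.0573). PSBO1 and PSBP1 gave ratios at 2 h only, at 0.06 and −0.01.

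PSBS (AT1G44575, NPQ4), which encodes the sensor of lumen acidity needed for rapid dissipation of excess light energy, was at 0.19, 0.13, −1.46 and −0.94. It was slightly above its control on the early arrays and well below it on the late ones. PSBY, for a small membrane subunit, was at −0.03, −0.08, −0.82 and −0.78 and split the arrays in the same way. PSBX, for another small subunit, was at 0.02, −0.70, 0.08 and −0.32, and its 10 h ratio was the highest of the 26 members measured then. PSBR and PSBW gave a ratio at 2 h only, at 0.48 and 0.03.

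A slope on log2 of hours over the SA arrays was fitted to ask whether ratios moved steadily with time. It was below 0 in 25 of 26 genes, with a median slope of −0.15, against −0.0002 over all probes. Limma called 0 of the 26, against 0.0% of all probes. At an unadjusted p under 0.05 there were 3 of the 26 members and 986 probes in all, which is 4.64% of all probes. The 3 were chosen after their values were seen: PSAE1, PSAH1 and PSAL.

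The second comparison asks how these genes differ between plants overexpressing SIB1 and vector controls. The 2 lines did not give the same picture. Over the 25 genes measured in both, the median was 0.03 in line 1 and −0.63 in line 2, and line 2 was below line 1 in 24 of 25, against 50.2% of all probes. In line 1, 9 of 25 ratios were below 0, against 48.4% of all probes, and in line 2, 32 of 35 were, against 50.3%. Both lines were below 0 in 8 of 25 genes, close to the 30.6% of all probes.

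At least 2-fold lower were 0 of 25 genes in line 1, against 0.0838% of all probes, and 3 of 35 in line 2, against 2.26%. None was at least 2-fold higher in either line with loess, against 0.191% and 1.87%. With median centring PSBQ2 was at 1.13 and PSBX at 1.01 in line 1, and LHCB7 at 1.06 in line 2. Among the 23 genes measured on all arrays, the 3 lower in line 2 became 1 with arrays centred on their median. The mean of the 2 lines was below 0 in 24 of 25 genes, against 49.9% of all probes. That direction depended on the normalization, since 4 of 25 means were below 0 when arrays were centred on their median in place of loess. Limma called 0 of 25 members and 0 of 21473 probes (0.0%), with 1 member and 992 probes at an unadjusted p under 0.05. The smallest limma adjusted p over all probes was 0.663, and SIB1 itself, at 5.25 and 5.59, was not called. With 2 arrays the absence of calls thus does not tell whether members differ. No other test of the mean of the 2 lines was run.

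**Figure D5:**
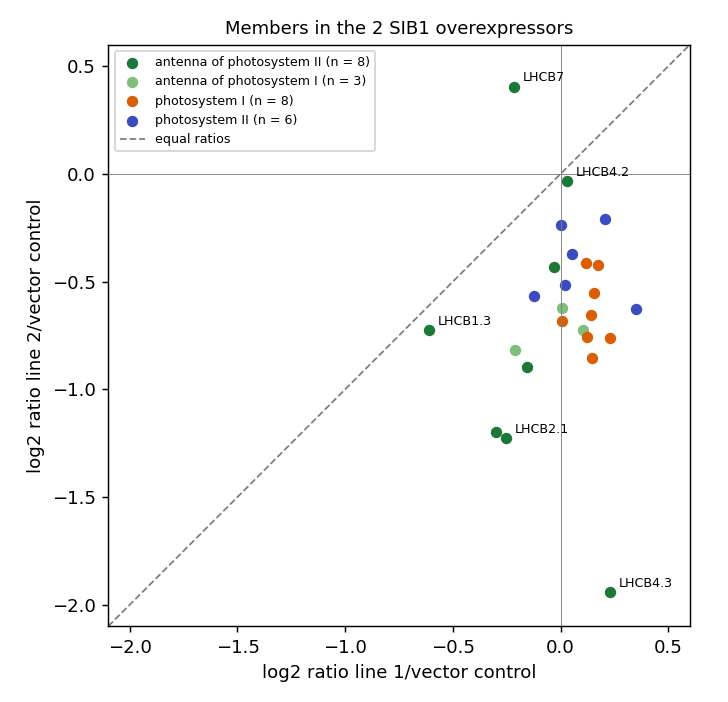
Log2 ratio of overexpressor over vector control in line 2 (vertical axis) against line 1 (horizontal axis) for the 25 genes measured in both, coloured by group, with the dashed line at equal ratios. All but LHCB7 lie below the dashed line.

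The 3 genes past 2-fold in line 2 were antenna genes of photosystem II. LHCB4.3 was at 0.23 in line 1 and −1.94 in line 2, so the lines lay on opposite sides of the control. LHCB2.1 was at −0.25 and −1.23, and its neighbour LHCB2.2 at −0.30 and −1.20. Of these 3, only LHCB4.3 stayed past 2-fold in line 2 with median centring, at −1.30. LHCB2.1 was then at −0.56 and LHCB2.2 at −0.52. All 3 were dim in line 2, with mean signals between 198 and 629. LHCB2.3, the lowest ratio among the members measured under SA at 10 h, was at −0.16 and −0.90. LHCB4.2, at −2.19 under SA at 10 h, was at 0.03 and −0.03, near the vector control in both lines. Comparing the means of the 2 lines with those of the SA arrays, limma called a difference in 0 of 25 members, against 0.0419% of all probes.

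LHCB1.3 was at −0.61 and −0.73 with loess, the lowest ratio measured in line 1 and the one gene whose lines lay close together below 0. Its mean was −0.67 ± 0.08 (SD, n = 2), with an unadjusted limma p of 0.00494 and an adjusted p of 0.663. That shift depended on the normalization. With arrays centred on their median, LHCB1.3 was at 0.06 in line 1 and −0.07 in line 2. LHCB7 was at −0.22 and 0.40, the single gene higher in line 2 than in line 1. LHCB4.1 was at −0.03 and −0.43. Of the LHCB genes measured in line 2 alone, LHCB3 was at −0.37 and LHCB5 at −0.20.

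The LHCA genes measured in both lines followed the same split between lines. LHCA2 was at 0.01 and −0.62. LHCA5 was at 0.10 and −0.72, and LHCA6 at −0.21 and −0.82. In line 2 alone, LHCA3 was at −0.44 and LHCA4 at −0.34.

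All 8 photosystem I genes measured in both lines were above 0 in line 1, between 0.01 for PSAD1 and 0.23 for PSAH2, and below 0 in line 2. PSAD2, the member called under SA, was at 0.14 in line 1 and −0.86 in line 2, the lowest photosystem I ratio measured in that line. PSAH2 was at 0.23 and −0.76, and PSAL at 0.12 and −0.76. In line 2 alone, PSAG was at 0.18, above its control, and PSAO at −0.65.

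The 6 photosystem II genes measured in both lines lay between −0.13 for PSBO2 and 0.35 for PSBQ2 in line 1. In line 2 the same genes were all below 0, with PSBQ2 lowest at −0.63. PSBS was near its control in line 1, at −0.00, and at −0.24 in line 2. In line 2 alone PSBO1 was at 0.02, PSBP1 at −0.55 and PSBW at −0.60.

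The level of the set in each line depended on the normalization. When arrays were centred on their median in place of loess, the median of the 23 genes measured on all arrays was 0.81 in line 1, −0.12 in line 2 and 0.91 at 2 h, against 0.06, −0.63 and 0.02 with loess. Line 2 stayed below line 1 by 0.94 with median centring and by 0.68 with loess. Neither the clock ratios of line 2 nor this normalization was tested as a part of the difference between lines. In line 1, 0 of 25 ratios were below 0 with median centring, and in line 2, 19 of 25 were.

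Genes that act beside the photosystems give the background of the pathway. In the SA fit, 4 genes of these lists were called lower and none higher, against 0.951% and 2.75% of all probes. Over all probes 0 were called when either the 5 h or the 10 h array was left out. None of the 4 calls could therefore hold there. Of the 8 light-harvesting-like stress proteins 0 were called, with means from −1.05 for LIL3:1 and −0.84 for OHP1 up to 0.17 for ELIP2 and 0.23 for SEP2. Of 13 electron transport and ATP synthase genes 1 was called, ATPC1, for the gamma subunit of the ATP synthase, at −1.35, −1.05, −0.48 and −1.47 (limma adjusted p = 0.0396). FNR2, for a ferredoxin-NADP reductase, had the lowest mean of that list, −1.25, without passing, and ATPG and FD1 the highest, −0.05 and −0.02.

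Carbon fixation had 2 of 12 tested genes called lower, both of the Calvin cycle. PRK, for phosphoribulokinase, was at −1.39, −1.03, −0.93 and −1.33 (limma adjusted p = 0.0183). CFBP1, for the chloroplast fructose bisphosphatase, was at −0.69, −1.36, −1.51 and −1.24 (limma adjusted p = 0.0261). The highest means were −0.11 for RBCS2B and −0.13 for GAPA. PRK was low at 2 h already, when the median of the photosystem genes was 0.02.

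Antenna targeting had 1 of 5 genes called lower. CPSRP54, part of the chloroplast signal recognition particle that carries antenna proteins to the thylakoid, was between −1.72 and −0.87 on the 4 arrays (limma adjusted p = 0.0278). Its partner CPSRP43 had a mean of −0.90 and missed the threshold (limma adjusted p = 0.0567), and LTD and CPFTSY had means of −0.61 and 0.06. Of 13 assembly and repair genes 0 were called, with means from −1.04 for PSB27 and −0.83 for HCF244 to −0.29 for FTSH2 and −0.17 for DEG1.

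Of 9 regulators of photosynthesis genes and antenna phosphorylation 0 were called. GLK2, for a transcription factor of chloroplast development known to activate antenna genes, was at −0.43, −1.09, −2.31 and 0.09. Its lowest ratio fell at 10 h, as for 31.9% of all probes, and its part in the antenna ratios was not tested. GUN4, which binds chlorophyll precursors, was at −0.44, −0.95 and −2.19 at 2, 5 and 10 h. The highest means were 0.42 for HY5 and −0.11 for TAP38. HY5, a transcription factor of light signalling, was at −0.00 in line 1 and 3.51 in line 2.

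The median SA mean of these lists was −0.25 for the stress proteins, −0.42 for electron transport, −0.46 for carbon fixation, −0.68 for antenna targeting, −0.65 for assembly and −0.33 for the regulators. It was −0.44 for the 26 photosystem and antenna genes and −0.01 for all probes. The set of photosystem genes thus lay within the range of the other photosynthesis lists.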

How the data were processed

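The deposited files of single arrays hold, per the file headers, scanner spot intensity in 2 channels, spot flags, and the scanner software's log10 ratio of Cy5 over Cy3. The authors' deposited series table holds a linear ratio per probe, whose log correlated with the computed log2 ratio at r = 0.947 to 0.993. The sources used here do not give the normalization behind it. Groups came from the labels.

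From the deposited intensity values, background was corrected with normexp (offset 50) and log2 ratios were normalized by loess within arrays (R 4.3.3, limma 3.58.1; figures with Python 3.11.15, matplotlib 3.10.9). Control spots were left out, and outlier-marked spots (10 to 25 per array, 1722 at 24 h) and spots saturated in either channel were set to missing. Tests used limma's lmFit and eBayes over all probes with Benjamini-Hochberg adjustment. Calls required at least 2-fold (no fold for the slope) at an adjusted p under 0.05. Probes needed ratios on 3 SA arrays or both overexpressor arrays, and to be well above background. The test was tried on simulated data.

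The members, lists and tests were chosen with earlier results of these data known. All 43 members are named, with, of each list, the 2 highest and 2 lowest means and any call, and clock genes past 2-fold in an overexpressor. Locus names were read from the files. 21342 probes had 1 locus, 158 had loci that differed between files, and 21157 loci were matched in a RefSeq table of TAIR10.1, used for names and neighbours only. The number of arrays limits the precision. Alternatives were other offsets, the scanner's ratio, median centring, the deposited table, other treatment of flagged spots, a variance trend and leaving out arrays.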

Additional observations from a re-analysis of the deposited data

Results flagged for a closer look

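The antenna and photosystem I genes measured on all 6 arrays had medians on opposite sides of 0 at 2 h and at the later SA times. The antenna median was 0.080 at 2 h, against −0.37, −1.16 and −0.08 at 5, 10 and 24 h. The photosystem I median was 0.071 at 2 h, against −0.54, −0.84 and −0.70. Each time has 1 array and the differences were not tested. With median centring the 2 h medians were 0.70 and 0.97.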

How the results depend on the processing

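Each SA time has 1 array, and the 5 genes saturated on every array gave no ratio. The SA fit called 787 probes, against 1251 with an offset of 16, 1377 with the scanner's ratio and 1430 with the authors' table, and 0 to 712 when 1 array was left out. Its 1 member call, PSAD2, became 0 with median centring and 0 to 0 when 1 array was left out. The overexpressor fit called 0 probes, against 412 with median centring and 1 with a variance trend. The difference between overexpressors and SA called 9, against 81 with an offset of 16, 52 with the scanner's ratio, 80 with median centring, 15 with saturated spots kept, 33 with the authors' table, 24 with a variance trend and 0 to 60 when 1 array was left out. It was 60 without 2 h, 20 without 24 h and 0 without 5 h, 10 h, line 1 or line 2.

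Median centring moved medians most on the dim arrays. The median over all members became 0.91 at 2 h, 0.81 in line 1 and −0.12 in line 2. The antenna median became 0.70, 0.56 and −0.20 there, with the sign turned in line 1. Photosystem I became 0.97 at 2 h and 0.90 in line 1. Photosystem II became 0.97 at 2 h, 0.80 in line 1 and 0.049 in line 2, with the sign turned at 2 h and in line 2. SA means that turned above 0 with median centring were PSAH1 0.10, PSAK 0.085, LHCB2.1 0.24, LHCB1.3 0.28 and LHCB2.2 0.15. With 1 array left out, LHCB2.1 ranged from −0.21 to 0.013 and LHCB1.3 from −0.21 to 0.20, both above 0 without the 10 h array.

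Overexpressor means that turned above 0 with median centring were PSAN 0.41, PSAH1 0.39, PSBQ1 0.38, PSAE1 0.48, PSAE2 0.49, PSBO2 0.26, LHCA6 0.15, LHCA5 0.35, PSBQ2 0.49, PSAD1 0.27, PSBY 0.48, LHCB4.1 0.37, PSAH2 0.39, PSBX 0.60, LHCA2 0.30, LHCB4.2 0.60, PSAL 0.32, PSAD2 0.29, LHCB2.3 0.10 and PSBS 0.49. PSBX and LHCB4.2 also turned with an offset of 16 (0.082 and 0.073), the scanner's ratio (0.064 and 0.057) and the authors' table (0.098 and 0.079). The cause of these changes was not tested. The overexpressor fit has no test with 1 array left out. No paired analysis was possible because the SA times have 1 array each and the labels give the groups no shared replicate numbers.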
